A study of Chlorocebus sabaeus with 6 samples.

Results

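The genes described here are the sensors of the unfolded protein response (UPR) and the transcription factors and regulators below them: ERN1, EIF2AK3, ATF6, ATF6B, XBP1, ATF4, DDIT3, PPP1R15A, TRIB3 and CREB3L2. They were chosen by name, from their place in the pathway. Both they and the lists of related genes below were chosen with earlier results of these data known. Of the 10, 9 were matched by symbol among the 18050 genes of the table. PPP1R15A was not analysed here. All 9 passed the filter on low counts. RNA had been sequenced from 3 samples of wild-type COS7 cells (WT) and 3 samples of COS7 cells in which ATL2 and ATL3 had both been knocked out (DKO), all grown in serum-containing medium without a drug or stress treatment in the labels. COS7 is an SV40-transformed, fibroblast-like kidney line of the green monkey Chlorocebus sabaeus, and all samples share that background. ATL2 and ATL3 encode atlastins, GTPases that fuse membranes of the endoplasmic reticulum (ER). The labels do not say how many knockout clones the DKO samples stand for or whether samples of a genotype were separate cultures, so that every p-value speaks only of the variation among these libraries, and that variation may be technical.

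The UPR is the set of signals by which a cell adjusts the folding capacity of the ER. IRE1, encoded by ERN1, is an ER membrane kinase and nuclease that removes an intron from XBP1 mRNA, which then encodes an active transcription factor. PERK, encoded by EIF2AK3, phosphorylates the translation factor eIF2, and this slows protein synthesis while ATF4 mRNA is translated more. ATF4 in turn drives DDIT3, which encodes CHOP, and CHOP and ATF4 drive PPP1R15A and TRIB3, which feed back on the pathway. ATF6 and its relative ATF6B move to the Golgi, where site-1 and site-2 proteases release their transcription factor domains. CREB3L2 encodes a factor of the same membrane-bound, protease-released kind that is known for secretory pathway genes. Most of these steps act on protein, phosphorylation or splicing. The values below are levels of mRNA per gene and do not part spliced from unspliced XBP1.

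The libraries held 14197344 to 15693049 estimated counts, and between 15277 and 15885 genes had counts. Both knocked-out genes were reduced in all DKO samples, ATL2 to 21.6% and ATL3 to 14.0% of the WT level. VIM, a mesenchymal marker, was at 1260 to 1551 FPKM in all samples, the fibroblast markers THY1 and COL1A2 were at or near 0 (at most 0.03 FPKM), and the epithelial keratin gene KRT8 was at 395 to 544 FPKM. Marker sums of some classes moved with genotype. The sum of 9 fibroblast markers was 3360.50 to 3450.82 FPKM in WT and 1525.24 to 1580.19 in DKO. For 3 markers of kidney epithelium it was 107.18 to 112.67 and 26.46 to 31.51. For 3 endothelial markers it was 0.14 to 0.20 and 14.80 to 15.53, and in DKO nearly all of it was TEK. Most of the fall in the fibroblast sum was in FN1, the fibronectin gene (1783 to 1897 FPKM in WT, 190 to 232 in DKO), while PDGFRA (0.21 to 0.31, 13.76 to 18.40) and PDGFRB (0.53 to 0.63, 4.65 to 6.13) went the other way. The sums of 5 epithelial markers overlapped (661.33 to 754.15 FPKM in WT, 528.42 to 689.29 in DKO). So did those of 2 immune markers (14.08 to 15.87, 13.33 to 14.86). Within the epithelial class, CDH1 (4.78 to 4.93, 0.07 to 0.10) and KRT18 (183.35 to 195.17, 96.47 to 121.97) were lower in DKO. EPCAM (11.87 to 13.49, 21.72 to 38.56) and KRT19 (0.16 to 0.32, 0.77 to 1.75) were higher. The part of these differences in the results was not tested, and in bulk RNA fewer cells of a type and less RNA per cell cannot be told apart. DKO replicate 3 stood apart from the other DKO samples. Its counts differed from theirs by a chi-square of 75.17 and 80.05 per gene, whereas DKO replicates 1 and 2 differed by 1.53 and the WT pairs by 1.82 to 3.51. DKO replicate 3 was higher for short transcripts and lower for long ones. Its log2 CPM (counts scaled to library size with TMM factors) lay a median of 0.33 above the mean of DKO replicates 1 and 2 in the shortest of 5 equal length classes of the genes tested and below it in the longest (-0.20, Spearman's rho -0.26 over 13094 genes). The transcript length implied by its deposited counts and FPKM was also a median of 66 bases longer than in DKO replicates 1 and 2 (quartiles 61 and 67, 8762 genes), against 4 bases between those 2 samples. Results are therefore given with and without DKO replicate 3 wherever it matters.

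The transcription factor genes XBP1, CREB3L2, ATF4 and DDIT3 rose and ATF6B fell, while the genes of the PERK and ATF6 sensors did not pass the test. In DKO, 5 of the 9 genes were higher (ERN1, XBP1, CREB3L2, ATF4 and DDIT3), 1 was lower (ATF6B) and 3 were not called (EIF2AK3, ATF6 and TRIB3). Calls are those of edgeR's quasi-likelihood test at an adjusted p below 0.05 (Benjamini-Hochberg, over all 13094 genes tested). These counts stand beside a wide difference between the genotypes, in which 45.5% of all genes tested were called, 23.3% higher and 22.2% lower. The median log2 fold change was 0.52 over the 9 genes and -0.01 over all genes tested. For 6 of the 9 genes no DKO sample overlapped the WT samples, a share near the 62.6% of all genes for which this held. Without DKO replicate 3 the same 5 genes were higher and the same 1 lower, while 74.6% of all genes were called.

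In WT cells the 9 genes spanned more than 2 orders of magnitude in FPKM, a level per transcript length and library depth. ATF4 was the most abundant, at 207 FPKM, and ranked 439 of 18050 genes. XBP1 (29.7), ATF6B (27.9), ATF6 (24.3), TRIB3 (20.5) and DDIT3 (17.8) followed, then EIF2AK3 (6.35), CREB3L2 (3.31) and ERN1 (1.57). No neighbours in this order overlapped across the 3 WT samples. In DKO cells the order changed. DDIT3 stood directly after ATF4 and XBP1, ahead of TRIB3, ATF6 and ATF6B. There 3 pairs of neighbours overlapped, namely TRIB3 and ATF6, ATF6 and ATF6B, and CREB3L2 and EIF2AK3.

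**Figure D1:**
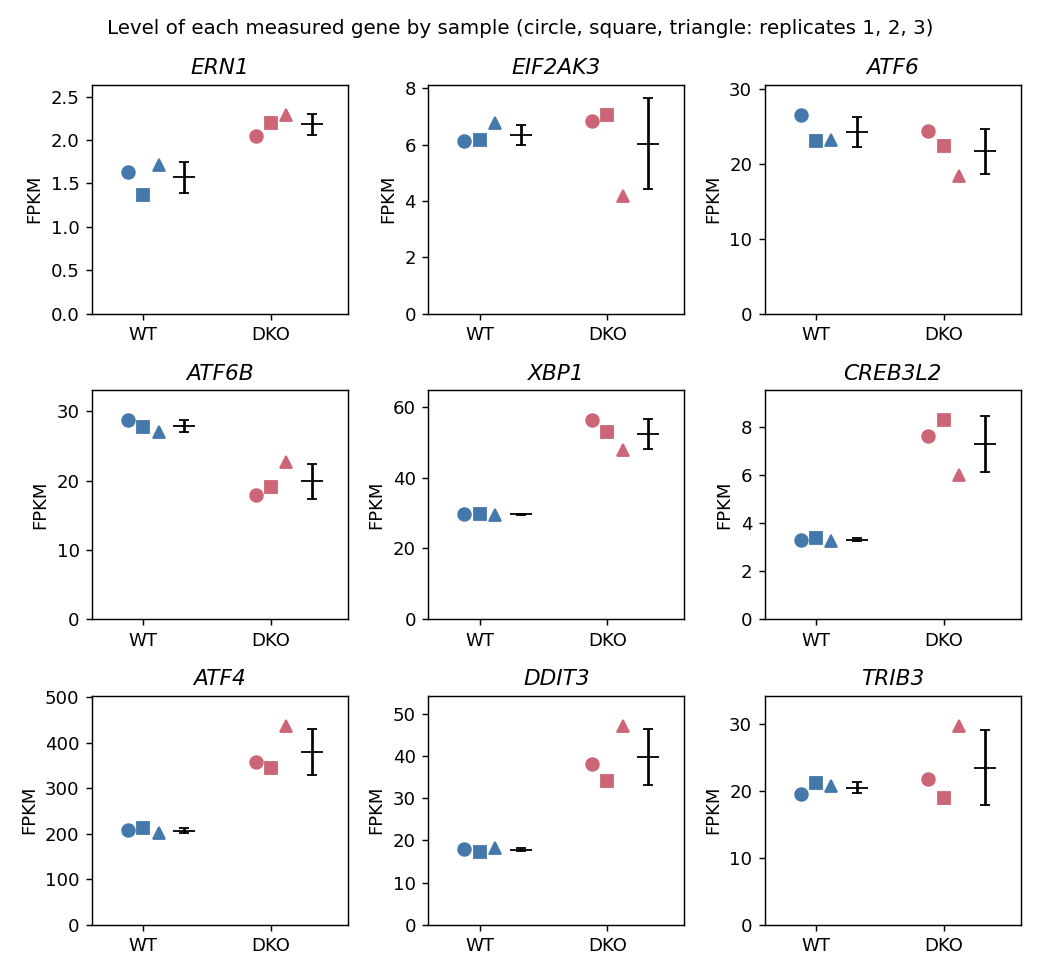
FPKM of each of the 9 measured genes (vertical axes, one scale per gene, from 0) in the 3 WT samples (blue) and 3 DKO samples (red), with the mean ± SD of each group in black beside the points. XBP1, CREB3L2, ATF4 and DDIT3 lie clearly higher in every DKO sample, and DKO replicate 3 (triangle) is the low point for EIF2AK3 and ATF6 and the high point for TRIB3.

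Of the sensors, only ERN1 passed the test in the upward direction. ERN1 mRNA was at 1.63, 1.37 and 1.71 FPKM in WT and at 2.05, 2.20 and 2.29 in DKO, on 109 to 137 estimated counts per WT library and 156 to 193 per DKO library. Every DKO sample was above every WT sample, by a small margin. The means were 1.57 ± 0.178 and 2.18 ± 0.121 FPKM (SD, n = 3 each), and the fold change was 1.43 (95% interval 1.13 to 1.81, log2 0.52, SE 0.14, edgeR adjusted p = 0.0225). ERN1 was no longer called without WT replicate 1, 2 or 3 or DKO replicate 2 (edgeR adjusted p = 0.0770, 0.0982, 0.0551 and 0.0527, log2 0.42 to 0.58). With the trend with transcript length removed from each library its log2 fold change was 0.85 (edgeR adjusted p = 0.00649). ERN2, the second IRE1 gene, known from gut and airway epithelium, was at 0 to 2 counts in each of the 6 libraries and was not tested.

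EIF2AK3, the PERK gene, was at 6.14, 6.15 and 6.76 FPKM in WT and at 6.85, 7.06 and 4.17 in DKO. DKO replicates 1 and 2 lay just above the WT samples and DKO replicate 3 below them all. The log2 fold change was -0.05 (SE 0.19, 95% interval -0.50 to 0.40, edgeR adjusted p = 0.858), so that these samples leave room for a change of up to 1.32-fold in one direction or to 0.708 of WT in the other. Without DKO replicate 3 the value was 0.13 (SE 0.08, edgeR adjusted p = 0.118).

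ATF6 was likewise not called. Its levels were 26.58, 23.05 and 23.18 FPKM in WT and 24.35, 22.34 and 18.34 in DKO, and its counts 1637, 1531 and 1645 against 1610, 1621 and 1148. The groups overlapped, and DKO replicate 3 was again the low sample. The log2 fold change was -0.07 (SE 0.17, 95% interval -0.46 to 0.32, edgeR adjusted p = 0.773), and 0.10 without DKO replicate 3 (SE 0.05, edgeR adjusted p = 0.0941). The FPKM of ATF6 is less certain than that of the other genes, since the transcript length implied by its counts and FPKM varied from 3989 bases in DKO replicate 3 to 5111 in DKO replicate 2, or by 24.7% of its median. For the other 8 genes it varied by 1.26 to 9.42%.

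ATF6B, which encodes the second ATF6 protein, was the 1 gene that fell. It was at 28.73, 27.81 and 27.02 FPKM in WT and at 17.93, 19.08 and 22.74 in DKO. All DKO samples were below all WT samples, and DKO replicate 3 was the nearest to them. The DKO level was 74.0% of WT (log2 -0.43, SE 0.14, 95% interval -0.77 to -0.10, edgeR adjusted p = 0.0436). This call is close to the threshold. It held without DKO replicate 3 (-0.59, edgeR adjusted p = 4.47e-11) and was lost without each of the 5 other samples in turn (edgeR adjusted p = 0.107 to 0.139). In FPKM the ratio of ATF6B to ATF6 was 1.08, 1.21 and 1.17 in the WT samples, 0.736 and 0.854 in DKO replicates 1 and 2, and 1.24 in DKO replicate 3. This ratio carries the uncertainty of the ATF6 FPKM given above. In CPM, ATF6B was at 58.5 to 62.3 and ATF6 at 101 to 108 in WT. They were at 39.2 and 112 in DKO replicate 1, 41.5 and 114 in DKO replicate 2, and 53.5 and 76.4 in DKO replicate 3.

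XBP1, the target of the IRE1 nuclease and itself a gene that ATF6 induces, rose in every DKO sample. Its levels were 29.82, 29.71 and 29.49 FPKM in WT and 56.21, 52.78 and 47.94 in DKO. The lowest DKO sample was well above the highest WT sample. The fold change was 1.82 (95% interval 1.55 to 2.13, log2 0.86, SE 0.10, edgeR adjusted p = 0.00045). DKO replicate 3 differed little from the other DKO samples for this gene, by -0.06 in log2 CPM.

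CREB3L2 rose more, from 3.31, 3.37 and 3.26 FPKM in WT to 7.64, 8.30 and 6.01 in DKO. The WT samples lay close together and all DKO samples were far above them. The fold change was 2.26 (95% interval 1.82 to 2.80, log2 1.18, SE 0.13, edgeR adjusted p = 0.000449). The log2 value was 1.27 without DKO replicate 3 and 1.55 with the length trend removed.

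ATF4 mRNA, which is translated when eIF2 is phosphorylated, was at 207.14, 212.14 and 201.46 FPKM in WT and at 356.40, 344.33 and 437.09 in DKO. DKO replicate 3 was the highest. The fold change was 1.91 (95% interval 1.51 to 2.41, log2 0.93, SE 0.14, edgeR adjusted p = 0.00179), and the log2 value was 0.76 without DKO replicate 3.

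DDIT3, the CHOP gene, had the largest fitted fold change of the 9 with all samples, though not without DKO replicate 3 or with the length trend removed, where CREB3L2 was ahead. Its levels were 18.03, 17.36 and 18.12 FPKM in WT and 38.13, 34.22 and 47.24 in DKO, so that the lowest DKO sample was above all WT samples. The fold change was 2.33 (95% interval 1.71 to 3.19, log2 1.22, SE 0.19, edgeR adjusted p = 0.00194), and the log2 value was 1.00 without DKO replicate 3. The table's row named DDIT3 has the gene ID 103238566, which the RefSeq annotation of mChlSab1.0.hap1 lists under a locus name beside a DDIT3 gene of another ID. In that annotation the 2 genes overlap, and DDIT3 overlaps the methionyl-tRNA synthetase gene MARS1 on its other side, so that the division of reads among them is uncertain. MARS1 itself was not called (log2 0.46, SE 0.18, edgeR adjusted p = 0.0803), but was higher without DKO replicate 3 (0.21, edgeR adjusted p = 0.000294).

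TRIB3 encodes a pseudokinase that is induced by ATF4 and CHOP and restrains them. It did not follow them in DKO replicates 1 and 2. Its levels were 19.57, 21.13 and 20.74 FPKM in WT and 21.74, 18.90 and 29.73 in DKO, and the groups overlapped. The log2 fold change was 0.25 (SE 0.20, 95% interval -0.23 to 0.73, edgeR adjusted p = 0.350), and without DKO replicate 3 it was -0.01 (edgeR adjusted p = 0.911).

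Ratios within a library, chosen after the levels had been seen and given with no test, show how the regulators stood to each other. TRIB3 to DDIT3 in FPKM stood at 1.09, 1.22 and 1.14 in WT, and at 0.570, 0.552 and 0.629 in DKO. DKO replicate 3, where both genes were highest, did not stand apart in this ratio. DDIT3 to ATF4 was 0.0870, 0.0818 and 0.0899 in WT and 0.107, 0.0994 and 0.108 in DKO, a small and non-overlapping difference. ERN1 to EIF2AK3 was 0.223 to 0.265 in WT, 0.299 and 0.312 in DKO replicates 1 and 2, and 0.549 in DKO replicate 3.

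**Figure D2:**
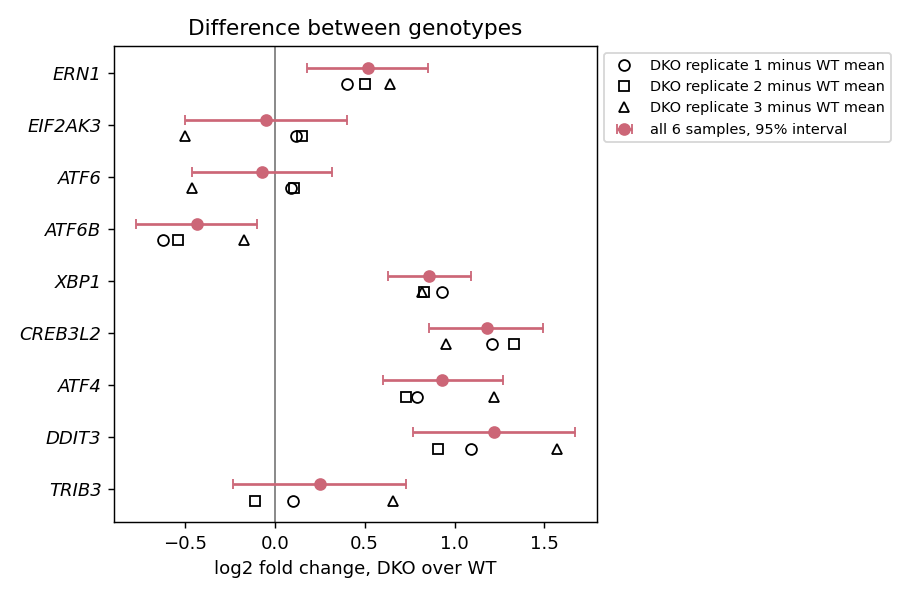
Log2 fold change of DKO over WT (horizontal axis) for the 9 measured genes, as the edgeR estimate with its 95% interval (red) and as the log2 CPM of each DKO sample minus the WT mean (open symbols). The intervals of EIF2AK3, ATF6 and TRIB3 include 0, and DKO replicate 3 (triangle) is at -0.50, -0.46 and 0.66 for these genes.

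The position of DKO replicate 3 among the DKO samples went with transcript length for most of these genes. It was lower than DKO replicates 1 and 2 in the log2 CPM of EIF2AK3 (-0.64), ATF6 (-0.56) and CREB3L2 (-0.32), whose implied lengths were 4491, 4539 and 7328 bases. It was higher for DDIT3 (0.57, 775 bases), ATF4 (0.46, 1288 bases), TRIB3 (0.67, 2033 bases) and ATF6B (0.41, 2195 bases). ERN1 (0.19, 5320 bases) and XBP1 (-0.06, 1677 bases) did not follow this order. Relative to the median of genes of like length, DKO replicate 3 differed most for TRIB3 (0.48), EIF2AK3 (-0.44), ERN1 (0.39), ATF6 (-0.36) and ATF6B (0.34), and by -0.25 to 0.24 for XBP1, CREB3L2, ATF4 and DDIT3. The part of transcript length in the differences between genotypes was not tested beyond the fit with the length trend removed. In that fit ATF6B was not called (-0.30, edgeR adjusted p = 0.131), EIF2AK3 (0.24, edgeR adjusted p = 0.212), ATF6 (0.23, edgeR adjusted p = 0.157) and TRIB3 (0.37, edgeR adjusted p = 0.169) were not called either, and 48.3% of all genes were.

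**Figure D3:**
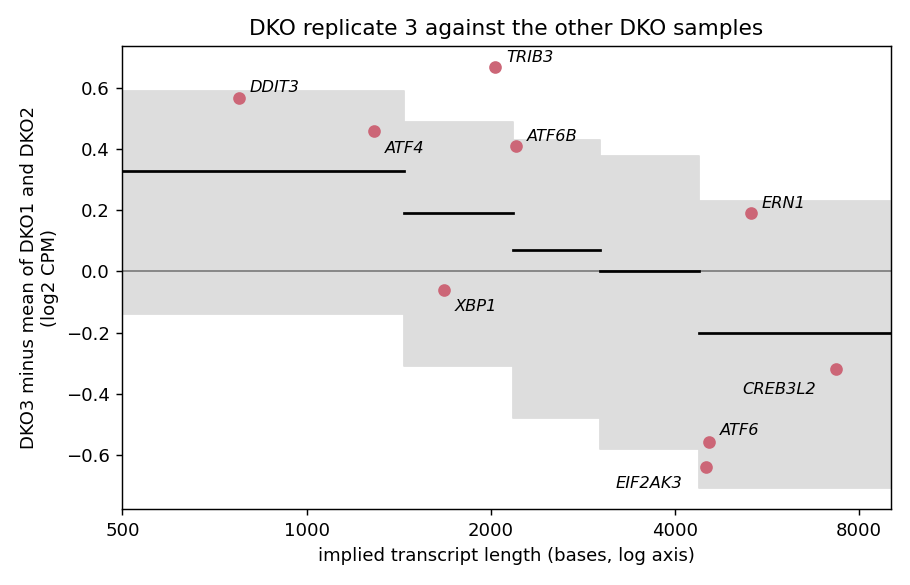
Log2 CPM of DKO replicate 3 minus the mean of DKO replicates 1 and 2 (vertical axis) against implied transcript length in bases (horizontal log axis, limited to the range around the 9 genes) for the 9 genes (red), over the median (black) and quartile range (grey) of all tested genes in 5 length classes. The class medians go from 0.33 to -0.20, and EIF2AK3 and ATF6 sit at -0.64 and -0.56 while TRIB3 sits at 0.67.

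EIF2AK3 and ATF6 had the most similar profiles among the 9 genes. Their centred log2 CPM over the 6 samples differed by a root mean square of 0.05, ahead of ATF4 and DDIT3 (0.15). Among 142 other genes of the pathway lists below, MBTPS2, which encodes the site-2 protease that cleaves ATF6, was nearest to EIF2AK3 (0.03), followed by YY1 (0.05), a transcription factor that works with ATF6. YY1 and NCK1, an adaptor that binds PERK, were nearest to ATF6 (0.05 each). ERN1 lay farther from its nearest genes, the translocon gene SEC61A1 and the arginine transporter gene SLC7A1 (0.12 each). These are descriptions of 6 profiles that share the drop or rise of DKO replicate 3.

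**Figure D4:**
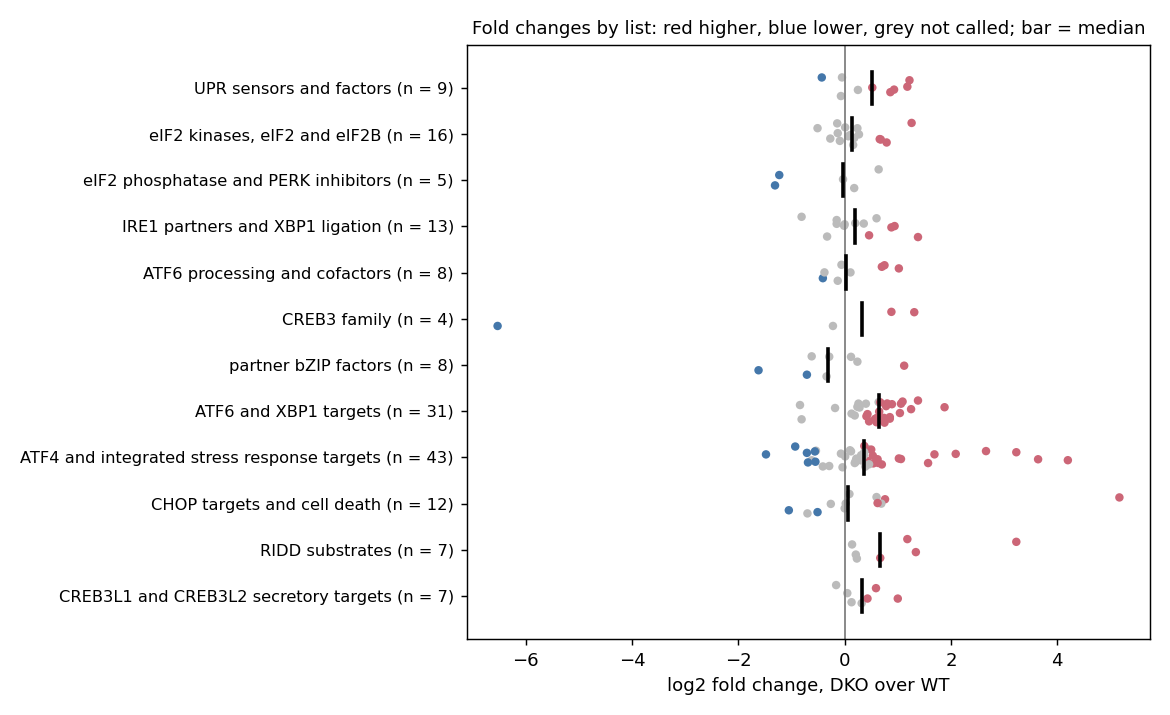
Log2 fold change of DKO over WT (horizontal axis) for every tested gene of the UPR sensors and factors and of 11 lists of related genes (rows), in red where edgeR called it higher, blue where lower and grey where not called, with the median of each row as a black bar. The ATF6 and XBP1 targets have 21 genes called higher and none lower, and CREB3L1 lies alone at -6.53.

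The relatives of CREB3L2 split. CREB3, which encodes the founding member of this family of membrane-bound factors, rose from 22.85, 24.00 and 21.06 FPKM in WT to 47.44, 51.78 and 62.82 in DKO (log2 1.31, SE 0.16, edgeR adjusted p = 0.000701). CREB3L1, which encodes the closest relative of CREB3L2 and is known for collagen and secretory genes, nearly vanished. Its WT libraries held 148, 142 and 132 counts against 0, 3 and 1 in the DKO libraries. From the counts pooled by group (422 against 4) the level was 101-fold lower. The exact 95% interval of 39.1 to 372 covers counting noise alone. The edgeR fit gave log2 -6.53 (SE 0.41, 95% interval -7.49 to -5.57, edgeR adjusted p = 3.65e-05). CREB3L3, a liver and gut factor, was at 1.06, 1.77 and 0.83 FPKM in WT and 2.03, 1.94 and 2.50 in DKO and was called higher (log2 0.88, SE 0.30, edgeR adjusted p = 0.0480), but not without WT replicate 1 or 3 or DKO replicate 1 or 2. CREB3L4 was not called (-0.22, edgeR adjusted p = 0.380), and was lower without DKO replicate 3 (-0.42, edgeR adjusted p = 0.00392). The 4 relatives thus had 2 higher and 1 lower (75% called beside 45.5% of all genes). They had 2 and 2 without DKO replicate 3, where 74.6% of all genes were called.

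Among 7 secretory genes attributed to CREB3L1 and CREB3L2, 3 were higher, 0 lower and 4 not called (42.9% called beside 45.5% of all genes, median 0.32). ARFGAP3, a COPI GTPase-activating protein gene, rose from 12.8 ± 0.425 to 25 ± 4.63 FPKM (log2 1.00, SE 0.14, edgeR adjusted p = 0.00122). The COPII coat gene SEC24D (0.43) and the KDEL receptor gene KDELR3 (0.59) were also higher, though SEC24D was not called without WT replicate 1 or 3, nor KDELR3 without any 1 WT sample. SEC23A, the most abundant, was at 64.3 ± 0.55 and 82.8 ± 8.82 FPKM (0.32, edgeR adjusted p = 0.0943), and was called without DKO replicate 3 (0.45). Without that sample 4 were higher and 0 lower, while 74.6% of all genes were called. Without WT replicate 1 or 3, 1 was higher.

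Of 16 genes of the other eIF2 kinases, their regulators, eIF2 and eIF2B, 4 were higher, 0 lower and 12 not called, with a median of 0.13. The share called was 25%, beside 45.5% of all genes. None of the 3 other eIF2 kinase genes was called. The heme-sensing kinase gene EIF2AK1 had a log2 fold change of 0.16 (edgeR adjusted p = 0.288), the RNA-sensing EIF2AK2 one of -0.51 (edgeR adjusted p = 0.289) and the amino acid sensor gene EIF2AK4, or GCN2, one of -0.13 (edgeR adjusted p = 0.289). EIF2AK2 was at 17.99 and 18.52 FPKM in DKO replicates 1 and 2 but 5.99 in DKO replicate 3, against 19.72 to 20.98 in WT. IMPACT, an inhibitor of GCN2, rose from 12.9 ± 0.095 to 34.3 ± 9.43 FPKM (1.26, SE 0.25, edgeR adjusted p = 0.00553). EIF2B5 and EIF2B2, subunit genes of the eIF2 exchange factor, were higher by 0.68 and 0.79, and DELE1, which carries mitochondrial stress to the kinase HRI, by 0.66. EIF2B2 was not called without any 1 WT sample. EIF2S2, the most abundant of the list, was at 142 ± 5.05 and 140 ± 46.3 FPKM (0.01, edgeR adjusted p = 0.972). Without DKO replicate 3, where 74.6% of all genes were called, 8 genes were higher and 3 lower, with EIF2AK1 (0.24) and EIF2S2 (0.24) among the higher and EIF2AK2 (-0.16) among the lower.

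PPP1R15B, the constitutive relative of PPP1R15A, fell. Its product brings protein phosphatase 1 to phosphorylated eIF2 in unstressed cells. It was at 14.83, 14.56 and 15.82 FPKM in WT and at 7.09, 7.35 and 4.40 in DKO. All DKO samples were far below WT (-1.23, SE 0.18, edgeR adjusted p = 0.00162). The phosphatase gene PPP1CB fell from 97.1 ± 3.34 to 38.5 ± 20.3 FPKM (-1.31, SE 0.39, edgeR adjusted p = 0.0307), a call lost without any 1 WT sample. PPP1CA (-0.03, edgeR adjusted p = 0.897) and PPP1CC (0.18, edgeR adjusted p = 0.441) were not called. DNAJC3, an ER co-chaperone also known as an inhibitor of PERK, was at 13.18 and 14.97 FPKM in DKO replicates 1 and 2 and 6.33 in DKO replicate 3, against 6.52 to 7.73 in WT (0.64, edgeR adjusted p = 0.113). It was called higher without DKO replicate 3 (0.92) and with the length trend removed (0.92, edgeR adjusted p = 0.0144). The 5 genes had 0 higher and 2 lower (40% called beside 45.5% of all genes), with a median of -0.03. Without DKO replicate 3, where 74.6% of all genes were called, they had 2 higher (DNAJC3 and PPP1CC) and 3 lower (with PPP1CA). Without any 1 WT sample they had 1 lower.

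Of 13 tested partners of IRE1 and of the ligation of XBP1, 4 were higher, 0 lower and 9 not called (median 0.20). The share called was 30.8%, beside 45.5% of all genes. RTCB, the ligase that joins the cleaved XBP1 mRNA, was at 49.37, 48.99 and 52.29 FPKM in WT and at 89.02, 83.66 and 106.53 in DKO (0.94, SE 0.14, edgeR adjusted p = 0.00163). RTRAF, a subunit of the same ligase complex, was higher by 0.46 (edgeR adjusted p = 0.0101), but not called without WT replicate 2. The disulfide isomerase gene PDIA6 (1.38), whose product attenuates IRE1, and the stress kinase gene MAP3K5 (0.88) were also higher. DNAJB9, a co-chaperone that represses IRE1 and a known target of XBP1, was at 8.39, 8.20 and 9.23 FPKM in WT, 6.45 and 6.44 in DKO replicates 1 and 2 and 1.68 in DKO replicate 3. All DKO samples were below WT, while the fit gave -0.81 (SE 0.42, edgeR adjusted p = 0.160) and, without DKO replicate 3, -0.42 (edgeR adjusted p = 0.00012). Without that sample 8 of the list were higher and 3 lower, while 74.6% of all genes were called.

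Substrates of regulated IRE1-dependent decay (RIDD), mRNAs that active IRE1 is known to cut, were not called lower. Of 7 genes, 4 were higher and 0 lower (57.1% called beside 45.5% of all genes, median 0.67). Without DKO replicate 3, where 74.6% of all genes were called, 6 were higher and 0 lower. Without any 1 WT sample 3 were higher. BLOC1S1, the best known substrate, was at 50.20, 51.79 and 46.72 FPKM in WT and at 64.64, 65.71 and 91.99 in DKO (0.67, SE 0.22, edgeR adjusted p = 0.0405), a call lost without any 1 WT sample. SPARC rose from 77.7 ± 3.36 to 171 ± 1.08 FPKM (1.18, SE 0.09, edgeR adjusted p = 6.98e-05). SCARA3 (1.34) and PDGFRB (3.23), the latter also one of the fibroblast markers, rose as well. These levels are set by transcription as well as by decay, which cannot be told apart here.

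In the ATF6 branch, neither protease gene was called higher. MBTPS1, the site-1 protease gene, was at 39.36, 39.49 and 39.05 FPKM in WT and at 28.69, 27.89 and 29.34 in DKO (-0.41, SE 0.09, edgeR adjusted p = 0.00903). Its call was lost without WT replicate 1 and with the length trend removed (-0.11, edgeR adjusted p = 0.513). MBTPS2, the site-2 protease gene, was not called (-0.06, edgeR adjusted p = 0.820). PDIA5, an isomerase that acts on ATF6, rose from 7.96 ± 0.276 to 15.6 ± 0.793 FPKM (1.02, SE 0.13, edgeR adjusted p = 0.000817), the cofactor gene NFYC by 0.70 and WFS1, an ER membrane protein that restrains ATF6, by 0.75. WFS1 was not called without WT replicate 3. Of the 8 genes, 3 were higher, 1 lower and 4 not called (median 0.03). The share called, 50%, was near the 45.5% of all genes. Without DKO replicate 3, where 74.6% of all genes were called, 3 were higher and 2 lower. Without WT replicate 1, 0 were lower.

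The known targets of ATF6 and XBP1 rose widely. Of 31 tested, 21 were higher, 0 lower and 10 not called, or 67.7% called beside 45.5% of all genes, with a median of 0.64 beside -0.01. HSPA5, which encodes BiP, the chaperone that holds the 3 sensors inactive, was at 287.23, 269.26 and 288.53 FPKM in WT and at 475.54, 488.44 and 442.00 in DKO (0.78, SE 0.08, edgeR adjusted p = 0.000223). DKO replicate 3 did not stand apart for HSPA5. CRELD2 had 3.68 times, PDIA6 2.61 times, HERPUD1 2.13 times and PDIA4 1.86 times the WT level. CALR, the most abundant, was higher by 0.41 (edgeR adjusted p = 0.0246), but not called without any 1 WT sample. Without DKO replicate 3, where 74.6% of all genes were called, 27 were higher and 2 lower. These 2 were DNAJB9 and the mannosidase gene EDEM3 (named after their values were seen). Fewer were called higher without WT replicate 1, 2 or 3 (16, 17 and 15), with 0 lower.

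Among 43 integrated stress response genes attributed to ATF4, 17 rose, 6 fell and 20 did not pass the test, with a median of 0.36. The share called, 53.5%, was near the 45.5% of all genes. VLDLR, a lipoprotein receptor gene, was at 1.09, 0.86 and 0.87 FPKM in WT and at 17.81, 16.63 and 17.08 in DKO (4.20, SE 0.15, edgeR adjusted p = 5.91e-06). The next smallest adjusted p-values were those of the hormone gene STC2 (log2 3.23), the collagen receptor gene DDR2 (2.66) and the mitochondrial folate enzyme gene ALDH1L2 (2.09). NUPR1, a stress-induced chromatin regulator gene, was higher by 3.64 (SE 0.43, edgeR adjusted p = 0.000567) on low WT levels of 0.37 to 0.75 FPKM. Of the 6 that fell, the serine synthesis gene PSPH (-1.48, edgeR adjusted p = 0.000179) and the angiogenic factor gene VEGFA (-0.93, edgeR adjusted p = 0.00027) kept the call without any 1 sample. So did ATF3 and EPRS1, both described below. NUPR1, PSPH, VEGFA and EPRS1 were named after their values were seen. CHAC1, a glutathione-degrading enzyme gene and a standard readout of ATF4 with CHOP, was at 14.21, 16.29 and 13.64 FPKM in WT and 22.71, 19.61 and 23.03 in DKO (0.62, SE 0.15, edgeR adjusted p = 0.0119), but not called without WT replicate 1 or 3. The translation repressor gene EIF4EBP1, the most abundant, was higher by 0.53 (edgeR adjusted p = 0.0352), a call lost without any 1 WT sample. The counts were 28 and 11 without DKO replicate 3, where 74.6% of all genes were called. Without WT replicate 1 or WT replicate 3, 10 were higher.

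Of 8 genes of partner factors of ATF4 and CHOP, 1 was higher, 2 were lower and 5 were not called (median -0.32). The share called was 37.5%, beside 45.5% of all genes. ATF3, a direct target of ATF4 that acts beside it, fell from 11.62, 10.97 and 12.77 FPKM in WT to 6.61, 7.05 and 7.32 in DKO (-0.71, SE 0.13, edgeR adjusted p = 0.00410). ATF5 (0.12, edgeR adjusted p = 0.550), CEBPB (-0.29, edgeR adjusted p = 0.174) and CEBPG (-0.62, edgeR adjusted p = 0.130), which encode dimer partners or targets, were not called, and CEBPG was lower without DKO replicate 3 (-0.33). CEBPD fell from 8.89 ± 0.1 to 2.75 ± 0.638 FPKM (-1.62, SE 0.21, edgeR adjusted p = 0.000843) and CEBPA rose from 4.15 ± 0.547 to 8.73 ± 0.801 (1.12, SE 0.16, edgeR adjusted p = 0.00134). NFE2L2, the most abundant of the list and a substrate of PERK, was at 44.4 ± 1.83 and 34.2 ± 8.57 FPKM (-0.34, edgeR adjusted p = 0.145), and lower without DKO replicate 3 (-0.17). The counts were 2 higher and 4 lower without DKO replicate 3, where 74.6% of all genes were called.

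Of 12 cell death genes linked to CHOP, 3 were higher, 2 lower and 7 not called, with a median of 0.06. The share called, 41.7%, was near the 45.5% of all genes. The death receptor gene TNFRSF10B, a CHOP target, rose from 19.5 ± 0.983 to 31.8 ± 2.60 FPKM (0.76, SE 0.13, edgeR adjusted p = 0.00309). BCL2, which CHOP is known to repress, fell from 8.38 ± 0.176 to 3.96 ± 1.29 (-1.05, SE 0.22, edgeR adjusted p = 0.00788). The inflammatory caspase gene CASP4 rose most, from 4.07, 4.18 and 5.71 FPKM to 172.33, 164.33 and 150.57 (5.17, SE 0.17, edgeR adjusted p = 4.43e-06). BAX, which encodes a pore-forming death effector and was the most abundant of the list, was at 83.22 to 84.36 FPKM in DKO replicates 1 and 2 and 141.96 in DKO replicate 3, against 68.82 to 77.12 in WT (0.60, edgeR adjusted p = 0.105), and was called without DKO replicate 3 (0.21). Without that sample 5 were higher and 4 lower, while 74.6% of all genes were called. Without any 1 WT sample 1 was lower.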

How the data were processed

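The authors deposited one table of 18050 genes which, per the file headers, holds estimated counts, FPKM and TPM for each gene and library. Per the submitters' processing notes the tools were HISAT and Bowtie2. Their versions, the program that counted and the build were not given in the sources used here. Of the estimated counts, 5.80 to 6.54% per library were not whole. The table's 9 columns of 3 other samples were not used. The 9 genes were matched by symbol, and 12 of 144 list genes by RefSeq ID (mChlSab1.0.hap1).

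Counts were rounded and tested with edgeR 4.0.16 (R 4.3.3; quasi-likelihood, TMM, default filter with a minimum count of 10) over 13094 genes. The standard error (SE) is the log2 fold change over the root of F. It and the 95% interval of the edgeR fit cover the spread among these libraries only. The exact interval for CREB3L1 comes from counts pooled by group and leaves out the spread among libraries. With 3 samples against 3 an exact two-sided permutation test cannot go below p = 0.1, the value for the 6 genes whose groups did not overlap. Levels are the authors' FPKM as deposited. Implied transcript length is counts over FPKM and total counts. Removing its trend (loess, span 0.3) and limma on log2(TPM + 1) were added after the data were seen. The other alternatives were DESeq2 1.42.0, limma 3.58.1 (voom, and log2 FPKM with pseudocounts of 1 and 0.1), other normalizations and filters, a replicate block and leaving out each sample. The fits were first tested on simulated counts, with 100, 50 and 50 of 13094 genes changed 1.5-fold, 2-fold and 4-fold. There edgeR recovered 16% of 1.5-fold, 74% of 2-fold and 100% of 4-fold changes, with 1% of its calls false. Of the DESeq2 calls 8.9% were false. The simulation had no deviating DKO sample and few changed genes, while 45.5% of genes were called in the data. Its shares therefore do not carry over to these data. A gene that was not called may still differ by a small fold.

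The genes and the 11 lists were chosen with earlier results of these data known. The lists share some genes and are described by counts and medians. Genes named from them are relatives by role, up to 4 of the smallest adjusted p and the most abundant. Figures were drawn with matplotlib 3.10.9.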

Additional observations from a re-analysis of the deposited data

How the results depend on the processing

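XBP1, ATF4, DDIT3 and CREB3L2 were called higher and EIF2AK3, ATF6 and TRIB3 were not called under all 18 refitted alternatives. ERN1 kept its call in 12 and ATF6B in 10 of them, and neither changed direction. The count of 5 higher genes was 4 to 5 when 1 sample was left out. The 1 gene called lower became 0 with upper quartile normalization (ATF6B, edgeR adjusted p = 0.0518), with the length trend removed, and at an adjusted p below 0.01, and was 0 to 1 when 1 sample was left out. At that stricter threshold 3902 of all genes were called in place of 5959, and with 1 sample left out 4266 to 9880, the highest without DKO replicate 3. With limma on log2(TPM + 1), ERN1 was not called (0.30, adjusted p = 0.0691). The cause of these changes was not tested.

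With the replicate number as a block, 4 of the 9 genes were called higher and 0 lower, and 4485 of all genes were called. ERN1 (0.52, edgeR adjusted p = 0.0718) and ATF6B (-0.45, edgeR adjusted p = 0.105) were lost. Same-numbered deviations from the group means correlated at 0.02, -0.28 and -0.29, and not every sample correlated best with its own number. DKO replicate 3 dominated the DKO deviations: those of WT replicate 2 correlated at -0.26 and -0.28 with DKO replicates 1 and 2 and at 0.31 with DKO replicate 3. These correlations therefore cannot tell whether the numbers pair samples, and the labels do not say. ERN1 had the fewest counts of the 9 genes, 109 to 193 per library.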

Other observations

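The ATF4 list held 9 aminoacyl-tRNA synthetase genes, which charge tRNAs and are commonly counted among its targets. This subset was picked out after its values had been seen and is given with no test. None was called higher, 2 were lower and 7 were not called (median 0.21), whereas 17 of the 34 other genes of the list were higher and 4 lower (median 0.41). EPRS1 fell (log2 -0.69, SE 0.16, edgeR adjusted p = 0.0103), as did TARS1 (-0.55, SE 0.18, edgeR adjusted p = 0.0420), a call lost without any 1 WT sample. The calls of the subset depended on DKO replicate 3, since without it 5 synthetase genes were higher and 3 lower. The fold changes did not grow with these calls. For the 5 higher genes the log2 values were 0.13 to 0.24 without that sample and 0.21 to 0.46 with all samples. For the 3 lower ones they were -0.53 to -0.25 and -0.69 to -0.41. In that fit 74.6% of all genes were called, and of the 34 other genes of the list 23 were higher and 8 lower. With the length trend removed 4 synthetase genes were higher and 1 lower, beside 21 and 3 of the 34 others.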
